A study of Homo sapiens with 46 samples.

Results

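The genes described here are 10 transcription factor genes of the FOS, JUN and EGR families, out of 62756 genes in the count table: FOS, FOSB, FOSL1, FOSL2, JUN, JUNB, JUND, EGR1, EGR2 and EGR3. They were chosen by family membership and on measured values of these same libraries, namely the higher FOSB level in the Lamin B1 line after auxin. Values of that line are therefore given as a description, with no test. All 10 genes passed the low-count filter, which kept 21484 genes.

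FOS and JUN family proteins are basic leucine zipper factors. They pair to form AP-1, a dimer that binds short DNA elements in promoters and enhancers, and JUN proteins can also pair with one another while FOS proteins cannot. EGR proteins are zinc finger factors that bind GC-rich elements. In most resting cells FOS, FOSB and the EGR genes are near silent and are switched on within minutes by growth factors, stress or calcium, through serum response factor, its ternary complex partners and CREB, after which their short-lived transcripts fall again.

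The cells were DLD-1, an established human colorectal adenocarcinoma line grown as an adherent culture. The untagged parental line, of wild-type genotype, was set beside 3 lines with an auxin-inducible degron (AID) fused to the N-terminus of endogenous Lamin A/C (the LAC line), Lamin B1 (LB1) or Lamin B2 (LB2), which directs the tagged protein to the proteasome once auxin is present. Each line received 1 mM auxin for 0, 16 or 96 h, and the parental series served to find genes that answer to auxin itself. The labels name no group kept for 16 or 96 h without auxin. Effects of auxin and of time in culture therefore cannot be told apart within a line. The labels do not say whether a tagged line was 1 clone, nor whether cells at 0 h received the DMSO in which auxin was dissolved. There were 4 libraries in each of 12 groups, except 3 in LB1 at 0 h and 3 in LB2 at 96 h, 46 in all. A replicate was 1 well of a plate, so p-values measure the spread between wells. In bulk RNA, fewer expressing cells and less RNA per cell cannot be told apart.

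Library totals ran from 479446 to 37309421 counts with a median of 11533218, and 6 libraries held under 5000000. All 8 epithelial and colon markers were detected in every group, led by KRT8 with group means of 3454 to 5816 CPM (library-scaled counts, per 1000000). Fibroblast markers summed to at most 5.54 CPM in any library and leukocyte markers to at most 5.49, and COL1A2 and DCN were at 0 in every group. Endothelial markers summed to 2.18 to 17.5 CPM, led by VWF. Among the epithelial markers, CDX2, an intestinal transcription factor, rose in the parental line at 16 and 96 h (log2 changes 1.30 and 1.24) and in LB2 (1.19 and 0.77). KRT20, an intestinal keratin, rose in LB2 at both times (0.86 and 0.70) and in LAC at 96 h (0.54, but 0.39 with an edgeR adjusted p of 0.0699 without replicate 1 at 0 h). KRT19, another epithelial marker, fell in LAC at 96 h (-0.81, edgeR adjusted p 0.00687). Without replicate 1 at 0 h the KRT19 change was -0.46 (edgeR adjusted p 0.138). The leukocyte marker CD14 rose in the parental line at 96 h, from 1.44 to 3.31 CPM (log2 change 1.28, edgeR adjusted p 0.0321). The part of these markers in the results below was not tested. Replicate 1 of LAC at 0 h (3318819 counts) and replicate 1 of LB2 at 0 h (1894447 counts) stood apart from their groups, with deviations that followed gene GC content (Spearman's rho 0.665 and 0.701 over 8547 genes, a description). Calls of the 10 genes that rest on them are given with and without them. Replicate 3 of LB2 at 16 h held the fewest counts. LMNA, the gene tagged in LAC, stood at 435 ± 230 CPM in LAC at 0 h and 738 ± 111 in the parental line (SD, n = 4 each). LMNB1 stood at 94.7 ± 7.31 CPM in LB1 (SD, n = 3) against 147 ± 8.92 in the parental line (SD, n = 4). LMNB2 stood at 143 ± 79.2 CPM in LB2, from 99.9 to 261, against 283 ± 32.5 in the parental line (SD, n = 4 each). The degron acts on protein, so these RNA levels do not check depletion.

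FOS, FOSB and EGR1 were among the genes that rose. JUN, an AP-1 partner, was called lower in LAC at 96 h, as were JUND and FOSL2. The JUN call was lost without replicate 1 of LAC at 0 h. The stretches of DNA just upstream of FOS, FOSB, JUN and EGR1 are therefore shown. They are the 250 bases before the RefSeq transcription start (GRCh38.p14), at chr14:75278578-75278827 on the plus strand for FOS, chr19:45467746-45467995 on the plus strand for FOSB, chr1:58784048-58784297 on the minus strand for JUN and chr5:138465229-138465478 on the plus strand for EGR1. Each is written 5′ to 3′ on the strand of its gene, with the motifs that were found in capitals.
FOS: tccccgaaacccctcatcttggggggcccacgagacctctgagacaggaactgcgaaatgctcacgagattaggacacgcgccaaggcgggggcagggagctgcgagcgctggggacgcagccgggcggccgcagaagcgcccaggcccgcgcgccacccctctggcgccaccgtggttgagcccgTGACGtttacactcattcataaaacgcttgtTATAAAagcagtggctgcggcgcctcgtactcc
FOSB: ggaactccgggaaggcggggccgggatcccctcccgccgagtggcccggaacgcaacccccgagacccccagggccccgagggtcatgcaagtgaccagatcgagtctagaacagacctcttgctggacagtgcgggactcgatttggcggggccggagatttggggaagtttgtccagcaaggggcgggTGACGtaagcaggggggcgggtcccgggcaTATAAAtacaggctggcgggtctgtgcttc
JUN: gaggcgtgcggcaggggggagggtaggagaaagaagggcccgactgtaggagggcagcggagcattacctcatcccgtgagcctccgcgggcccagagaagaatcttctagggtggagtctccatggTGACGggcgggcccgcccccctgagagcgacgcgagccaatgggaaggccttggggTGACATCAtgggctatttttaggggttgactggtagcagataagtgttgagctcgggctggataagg
EGR1: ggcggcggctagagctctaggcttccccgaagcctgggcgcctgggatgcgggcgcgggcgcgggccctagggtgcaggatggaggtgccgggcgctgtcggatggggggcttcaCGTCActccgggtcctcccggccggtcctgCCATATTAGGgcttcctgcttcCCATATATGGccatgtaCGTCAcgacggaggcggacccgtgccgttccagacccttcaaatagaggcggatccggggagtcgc

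The capitals mark exact matches, on either strand, to the core of the cyclic AMP response element (TGACG), an AP-1-like site (TGACATCA), a TATA box (TATAAA) and the CArG box, the element that serum response factor binds. FOS and FOSB had a like arrangement, with TGACG at -64 and -60 and TATAAA at -33 and -30 bases from the start. EGR1 had 2 CArG boxes, at -105 and -83, and TGACG on the opposite strand at -135 and -66. JUN had TGACG at -123 and TGACATCA at -67. Of 27305 RefSeq promoters of the same length, 1.14% held a CArG box, 21.7% held TGACG, 2.45% held TGACATCA and 11.1% held TATAAA. Among the 8 of 10 genes with a promoter entry, TGACGTCA, the full element that contains the core, was in JUND alone, at -200, and in 1.77% of all promoters. The canonical AP-1 site TGAGTCA (4.16% of promoters) and the EGR site GCGTGGGCG (0.710%) were in none of the 8 windows. Bases further upstream were not searched, so a motif absent from a window, such as the CArG box in FOS, may lie outside it. A match is a description of letters and not of binding.

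**Figure D1:**
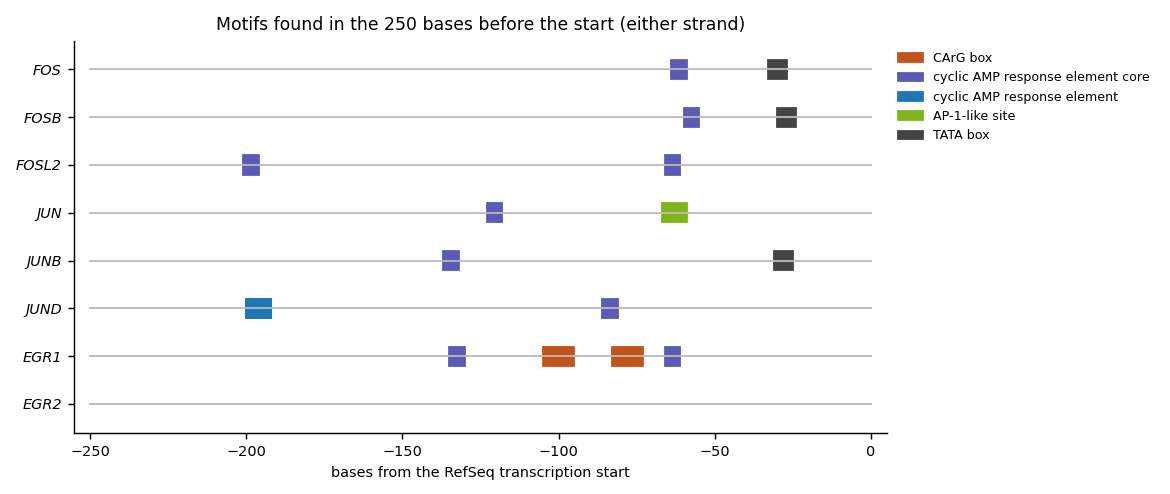
Motif matches in the 250 bases before the start of the 8 genes with a RefSeq promoter entry, by distance in bases from the start. Each coloured block is 1 match on either strand, and FOS and FOSB share a core element near -60 and a TATA box near -30.

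Levels of different genes are compared only per length, as RPKM (CPM divided by exon length in kilobases). Averaged over the 12 groups, EGR1 was the most abundant at 99.4 RPKM, followed by JUNB at 42.0, JUND at 28.2, FOSL2 at 23.4, FOSL1 at 22.8, JUN at 18.3 and FOS at 12.1. FOSB at 2.15, EGR3 at 1.09 and EGR2 at 0.453 were far lower. EGR2 had a median of 18 counts per library. FOSB overlaps ERCC1 on the opposite strand, JUNB overlaps HOOK2 and FOSL2 overlaps its antisense gene FOSL2-AS1. The strand setting of the count is not given in the sources used here, so reads of such partners may be mixed.

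FOS (chr14:75278826-75282230, plus strand, GRCh38 as are the positions below) encodes the founding FOS protein, an AP-1 subunit that cannot pair with itself. In the parental line its level in the 4 libraries was 24.4, 22.2, 25.6 and 33.1 CPM at 0 h, 36.2, 35.9, 33.2 and 36.3 at 16 h, and 78.0, 83.1, 77.05 and 85.7 at 96 h. No library at 16 or 96 h overlapped those at 0 h. The log2 fold change was 0.44 ± 0.17 (SE) at 16 h (edgeR adjusted p 0.0911) and 1.64 ± 0.17 at 96 h, a 3.11-fold rise (edgeR adjusted p 5.0e-09). The 16 h change passed the test without libraries under 5000000 counts (0.59, edgeR adjusted p 0.0139) and when the parental groups were fitted alone (0.38, edgeR adjusted p 0.0335).

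In LAC, FOS started at 22.0, 18.0, 21.4 and 21.6 CPM. It stood at 40.2, 35.6, 36.7 and 51.4 at 16 h and at 38.7, 28.8, 37.8 and 40.2 at 96 h, again with no overlap with 0 h. The rise was 0.99 ± 0.17 (log2, edgeR adjusted p 0.00066) at 16 h and 0.82 ± 0.17 (edgeR adjusted p 0.00072) at 96 h, and 1.03 and 0.86 without replicate 1 at 0 h. With the LAC groups fitted alone, the 16 h rise no longer passed (0.96, edgeR adjusted p 0.0788). In LB2, FOS was at 24.9, 18.0, 14.6 and 20.9 CPM at 0 h, 37.2, 26.5, 15.2 and 39.5 at 16 h, and 38.4, 27.1 and 26.0 at 96 h. The rise was 0.81 ± 0.18 at 16 h (edgeR adjusted p 0.0116), with overlapping libraries, and 0.69 ± 0.19 at 96 h (edgeR adjusted p 0.0271), without overlap, and 0.89 and 0.80 without replicate 1 at 0 h. Both calls in LB2 were lost when its groups were fitted alone (edgeR adjusted p 0.722 and 0.277) and in 3 fits each that left out 1 library (replicate 3 at 0 h, 1 or 4 at 16 h; replicate 2 or 3 at 0 h, 1 at 96 h). In LB1, FOS was at 20.1, 20.6 and 19.2 CPM at 0 h, 38.9, 34.6, 36.0 and 56.1 at 16 h, and 63.2, 72.6, 90.2 and 92.6 at 96 h, log2 changes of 1.07 and 2.00.

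FOSB (chr19:45467995-45475179, plus strand) encodes a close relative of FOS whose truncated splice form accumulates in neurons under repeated stimulation. In LB1, the line whose values chose the genes, it was at 4.07, 3.98 and 3.13 CPM at 0 h, 9.17, 6.20, 3.83 and 6.92 at 16 h, and 22.3, 30.2, 22.4 and 26.9 at 96 h. All LB1 libraries at 96 h lay above all those at 0 h and 16 h, and the log2 changes from 0 h were 0.80 ± 0.35 (SE) and 2.78 ± 0.34. The starting level in LB1 was low: the parental libraries at 0 h held 12.4, 5.61, 11.1 and 12.1 CPM, a log2 difference of -1.45 ± 0.35. At 96 h the means were close, at 25.5 ± 3.81 CPM in LB1 and 20.0 ± 4.27 in the parental line (SD, n = 4 each), and the libraries overlapped, with 14.3, 23.8, 19.1 and 22.6 CPM in the parental line.

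In the parental line the FOSB rise at 96 h was 0.99 ± 0.27 (log2, edgeR adjusted p 0.0186), with no overlap with 0 h. This call was lost without parental replicate 2 at 0 h (0.80, edgeR adjusted p 0.0678) or replicate 4 at 96 h (0.92, edgeR adjusted p 0.0545). In LB2, FOSB was at 10.5, 3.83, 4.51 and 2.80 CPM at 0 h, 7.60, 7.91, 4.35 and 14.2 at 16 h, and 24.0, 10.5 and 11.5 at 96 h. The 96 h rise was 1.72 ± 0.32 (edgeR adjusted p 0.00056) although the groups overlapped through replicate 1 at 0 h. It was 1.97 without that library (edgeR adjusted p 3.7e-05) and did not pass with the LB2 groups fitted alone (1.69, edgeR adjusted p 0.134). In LAC, FOSB was at 19.1, 9.21, 10.8 and 10.3 CPM at 0 h and 17.1, 14.7, 13.3 and 11.5 at 96 h, and the 96 h change of 0.28 ± 0.27 did not pass the test (edgeR adjusted p 0.531).

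FOSL1, or FRA1, and FOSL2, or FRA2, are FOS-related subunits expressed in many epithelia without acute stimulation. FOSL1 ranged from 26.0 to 63.6 CPM over all libraries, and none of its changes with auxin passed in the parental, LAC or LB2 line as fitted. The nearest was in LB2, from 54.3, 41.4, 41.3 and 46.4 CPM at 0 h to 55.0, 61.4 and 63.6 at 96 h. Those groups did not overlap, and the change of 0.41 ± 0.15 (edgeR adjusted p 0.134) passed in 4 of 16 alternatives, with 0.63 and an edgeR adjusted p of 0.00254 once the GC and length trend was removed. FOSL2 fell in LAC at 96 h, from 221, 195, 239 and 220.2 CPM to 181, 121, 125 and 164, a log2 change of -0.56 ± 0.14 without overlap (edgeR adjusted p 0.00384). That call was lost without a low-count filter (-0.48, edgeR adjusted p 0.0523) and with the LAC groups fitted alone (-0.57, edgeR adjusted p 0.0514), and was -0.54 without replicate 1 at 0 h. FOSL2 changed by -0.56 ± 0.15 in LB1 at 96 h, also without overlap, and by -0.25 ± 0.14 in the parental line (edgeR adjusted p 0.271).

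**Figure D2:**
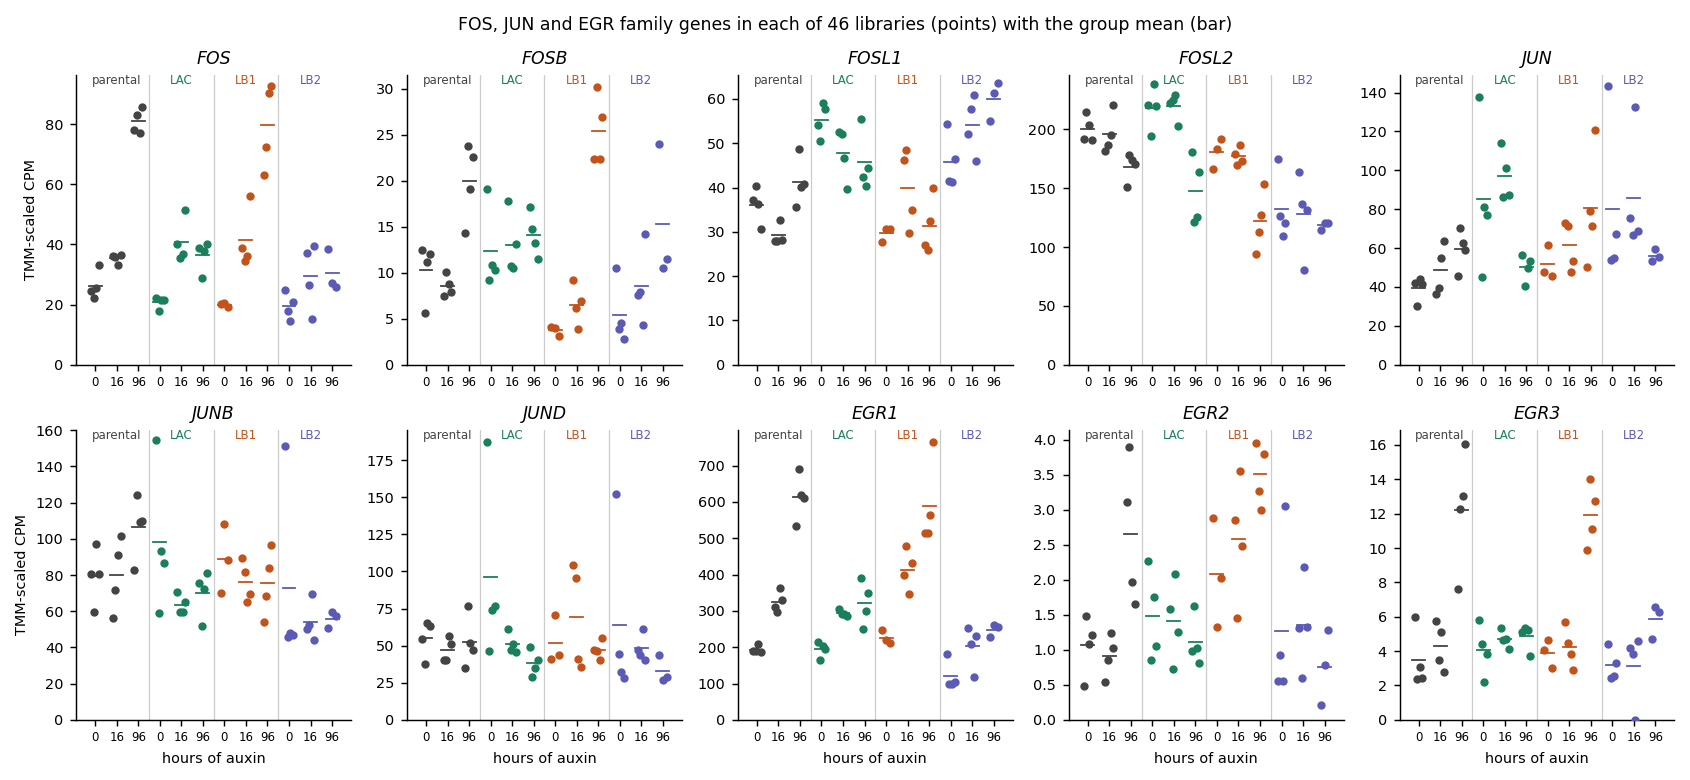
TMM-scaled CPM (y axis, from 0, its own scale in each panel) of each gene in every library, by line and hours of auxin, with the group mean as a bar. FOS, EGR1 and EGR3 are highest at 96 h in the parental and LB1 lines, and the high points of JUN, JUNB and JUND at 0 h in LAC and LB2 are replicate 1.

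JUN (chr1:58776845-58784048, minus strand) encodes the main partner of FOS, JUNB a weaker activator that can oppose JUN, and JUND a subunit usually present in resting cells. In LAC, JUN was at 138, 45.0, 81.0 and 77.1 CPM at 0 h, 114, 86.5, 101 and 87.3 at 16 h, and 56.7, 40.5, 49.7 and 53.5 at 96 h. The 96 h libraries overlapped those at 0 h through replicate 2. The fall at 96 h was -0.74 ± 0.25 (log2, edgeR adjusted p 0.0359). Without replicate 1 at 0 h it was -0.41 (edgeR adjusted p 0.31), and after removing each library's trend with gene GC content and length it was -0.41 (edgeR adjusted p 0.139). In the parental line JUN moved the other way, from 42.0, 30.0, 43.9 and 41.6 CPM at 0 h to 45.7, 70.2, 62.4 and 59.1 at 96 h, with no overlap. That change of 0.60 ± 0.26 did not pass (edgeR adjusted p 0.141), but did with the trend removed (0.60, edgeR adjusted p 0.0273) and in 4 other alternatives. In LB2, JUN was at 144, 53.9, 54.7 and 67.3 CPM at 0 h and 53.4, 59.6 and 55.4 at 96 h, and the change of -0.45 ± 0.27 did not pass (edgeR adjusted p 0.452). It was -0.05 without replicate 1 at 0 h. In LB1, JUN was at 47.7, 61.7 and 45.6 CPM at 0 h and 50.4, 79.3, 71.2 and 121 at 96 h, with overlap.

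JUND fell in LAC at 96 h by -1.30 ± 0.34 (edgeR adjusted p 0.00687), from 187, 46.2, 74.0 and 76.8 CPM to 48.9, 28.8, 34.9 and 40.0. The highest value belongs to replicate 1 at 0 h, without which the change was -0.76 (edgeR adjusted p 0.125). JUND lies at the 99.9 percentile of genes by GC content and JUNB at the 97.4 percentile. Across 8547 genes the LAC change at 96 h followed GC content with a Spearman's rho of -0.658, against 0.0217 in the parental line, and at 16 h the values were -0.710 in LAC and -0.480 in LB2, all as descriptions. The 16 h rises of FOS and EGR1 passed with the trend removed, at 1.101 and 0.78 in LAC and at 0.90 and 0.97 in LB2. With the trend removed, the JUND change was -0.46 (edgeR adjusted p 0.0877) and that of JUNB went from -0.46 to 0.17, neither passing. The part of GC content in the JUN, JUNB and JUND values was not otherwise tested. JUNB in LB2 at 0 h shows the same library pattern, with 151 CPM in replicate 1 and 45.6, 47.7 and 46.9 in the others.

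**Figure D3:**
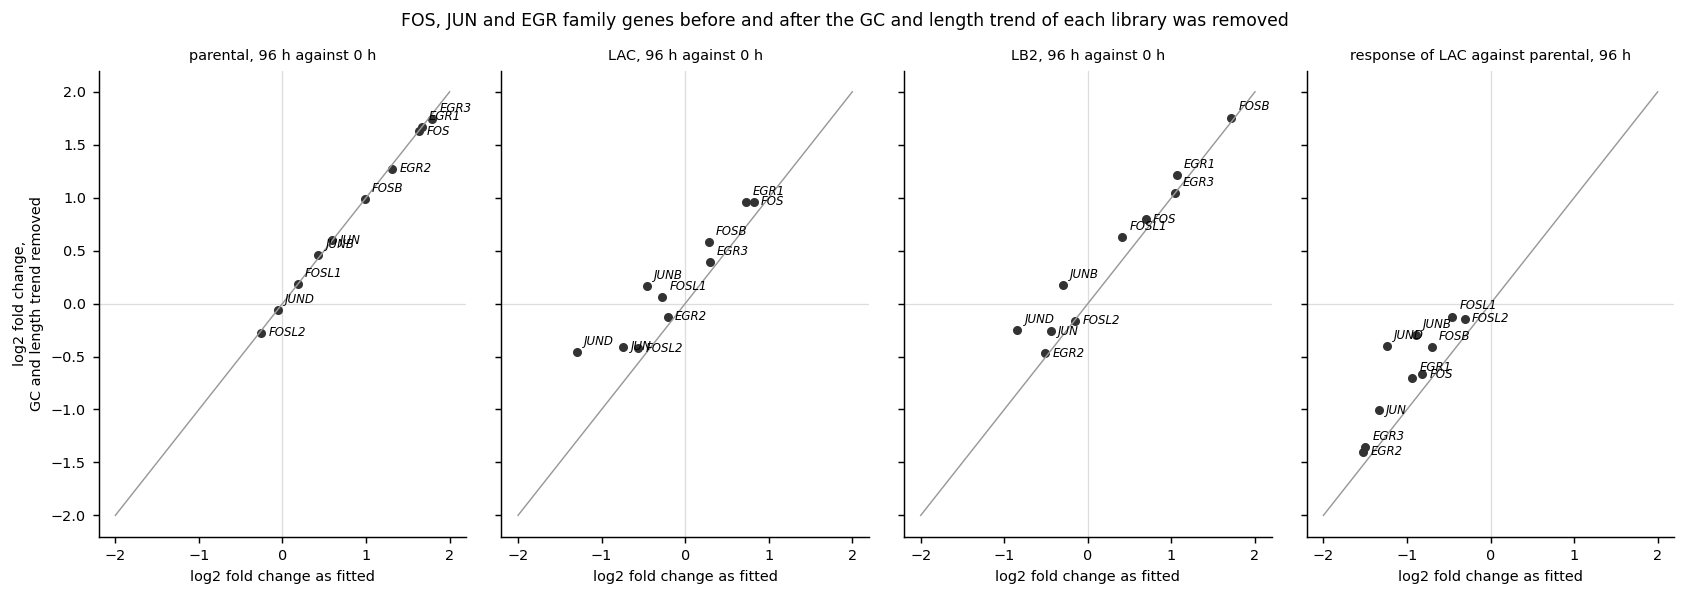
Log2 fold change as fitted (x axis) and after removing each library's GC and length trend (y axis) for the 10 genes, in 4 comparisons, with the line of equality. In LAC at 96 h FOS goes from 0.82 to 0.96, EGR1 from 0.73 to 0.96, and JUND from -1.30 to -0.46.

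EGR1 (chr5:138465479-138469303, plus strand) encodes a zinc finger factor that is a standard readout of the ERK kinase pathway. In the parental line it stood at 189.5, 189.0, 209 and 186 CPM at 0 h, 310.3, 296, 362 and 329 at 16 h, and 534, 691, 620.1 and 611 at 96 h. The 3 times did not overlap. The rise was 0.74 ± 0.16 at 16 h (edgeR adjusted p 0.00235) and 1.67 ± 0.16 at 96 h, 3.17-fold (edgeR adjusted p 8.0e-10).

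In LAC, EGR1 was at 216, 165, 202 and 196 CPM at 0 h, 305, 292, 292 and 287 at 16 h, and 390.2, 249, 299 and 348 at 96 h. Neither later time overlapped 0 h. The rise was 0.60 ± 0.16 at 16 h (edgeR adjusted p 0.0374) and 0.73 ± 0.16 at 96 h (edgeR adjusted p 0.00123). The 16 h call was lost in 8 of 17 alternatives, among them the LAC groups fitted alone (0.57, edgeR adjusted p 0.263) and every fit that left out 1 library at 16 h. The 96 h call passed in all 17 alternatives. Without replicate 1 at 0 h the rises were 0.66 and 0.79. In LB2, EGR1 was at 181, 99.1, 99.5 and 103 CPM at 0 h, 252, 209.5, 117 and 230.5 at 16 h, and 229, 260.3 and 254 at 96 h. It rose by 0.82 ± 0.16 at 16 h (edgeR adjusted p 0.00353) and 1.06 ± 0.17 at 96 h (edgeR adjusted p 6.9e-05), and by 1.03 and 1.31 without replicate 1 at 0 h. Both LB2 calls were lost with the LB2 groups fitted alone (edgeR adjusted p 0.705 and 0.0795). In LB1, EGR1 was at 246, 219.7 and 212 CPM at 0 h, 398, 479, 346 and 431 at 16 h, and 513, 514, 564 and 765 at 96 h, log2 changes of 0.87 and 1.38.

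EGR3, itself a target of EGR1 in several cell types, was at 5.97, 2.39, 3.05 and 2.42 CPM in the parental line at 0 h and 7.60, 12.3, 13.0 and 16.1 at 96 h. The groups did not overlap and the rise was 1.79 ± 0.28 (edgeR adjusted p 1.9e-05). In LAC it was at 5.83, 4.44, 2.22 and 3.85 CPM at 0 h and 5.14, 5.37, 5.23 and 3.74 at 96 h, a change of 0.30 ± 0.27 that did not pass (edgeR adjusted p 0.508). In LB2 it was at 4.44, 2.41, 2.58 and 3.31 CPM at 0 h and 4.71, 6.59 and 6.27 at 96 h, and the rise of 1.05 ± 0.31 passed narrowly (edgeR adjusted p 0.045) and was lost in 8 of 16 alternatives, with values of 0.91 to 1.27 (1.16 without replicate 1 at 0 h). In LB1 it went from 4.07, 4.65 and 3.04 CPM to 9.88, 14.0, 11.1 and 12.8. EGR2, best known from nerve and immune cells, was at 0.487, 1.49, 1.08 and 1.21 CPM in the parental line at 0 h and 3.11, 3.89, 1.96 and 1.65 at 96 h. The groups did not overlap, but the change of 1.31 ± 0.45 did not pass as fitted (edgeR adjusted p 0.0593), while it passed in 5 of 17 alternatives.

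**Figure D4:**
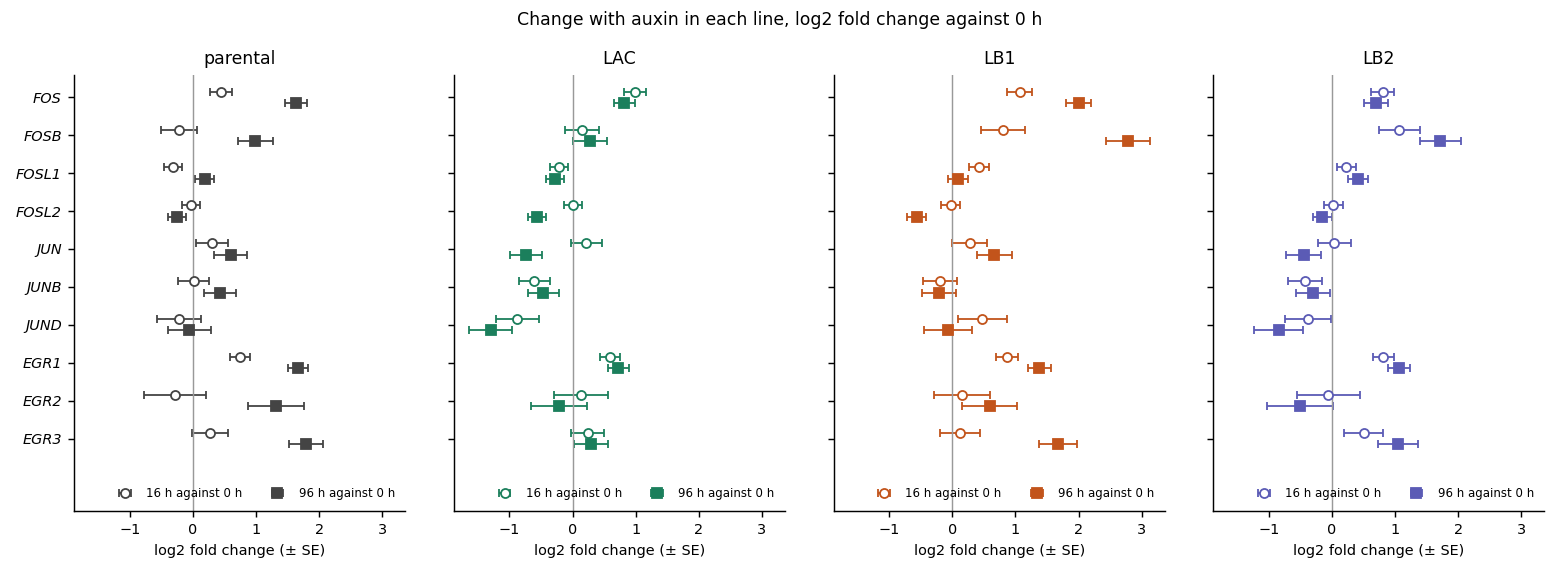
Log2 fold change against 0 h at 16 h (open circles) and 96 h (filled squares) with standard errors, for 10 genes in 4 lines. FOS and EGR1 lie to the right of 0 at both times in all 4 lines, and FOSB in LB1 at 96 h is the largest change, at 2.78.

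The number of these genes called is read against the share of all tested genes called in the same comparison. In the parental line it was 1 of 10 at 16 h, where 9.01% of all genes were called, and 4 of 10 at 96 h (7.78%), all 4 higher than at 0 h. In LAC it was 2 of 10 at 16 h (1.78%) and 5 of 10 at 96 h (15.4%), 2 higher and 3 lower. In LB2 it was 2 of 10 at 16 h (1.81%) and 4 of 10 at 96 h (3.55%), all higher. The median log2 change of the 10 genes at 96 h was 0.79 in the parental line, -0.24 in LAC, 0.63 in LB1 and 0.13 in LB2, beside -0.03, 0.03, 0.04 and -0.0024 for all genes. With only the groups compared in the fit, the counts fell to 0 in LAC at 16 h and to 0 in LB2 at both times. The share of all genes called in those fits is not given here, so the falls cannot be read against it.

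The lines were also compared before auxin. Against the parental line at 0 h, 2 of 10 genes were called in LAC (15.8% of all genes) and 4 of 10 in LB2 (8.21%). In LAC, FOSL1 was higher by 0.60 ± 0.14 (edgeR adjusted p 0.00255) and JUN by 1.09 ± 0.26 (edgeR adjusted p 0.00237), each without overlap and passing in all 17 alternatives, and JUN by 0.81 without replicate 1 (edgeR adjusted p 0.0149). In LB2, FOSB was lower by -1.13 ± 0.32 (edgeR adjusted p 0.0196), FOSL2 by -0.61 ± 0.14 (edgeR adjusted p 0.00331) and EGR1 by -0.70 ± 0.16 (edgeR adjusted p 0.0033). Without replicate 1 these were -1.35, -0.73 and -0.92. The FOSB libraries overlapped and those of FOSL2 and EGR1 did not. JUN was higher by 0.97 ± 0.26 (edgeR adjusted p 0.0129), and by 0.60 without replicate 1 (edgeR adjusted p 0.0861). None of the 4 LB2 differences passed with these 2 groups fitted alone, where the edgeR adjusted p ran from 0.0639 to 0.146.

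Whether a tagged line answered to auxin differently from the parental line was tested as a difference of changes. At 96 h the LAC change lay below the parental change for 4 of 10 genes (7.40% of all genes called): FOS by -0.82 ± 0.24 (edgeR adjusted p 0.0298), JUN by -1.34 ± 0.36 (edgeR adjusted p 0.0178), EGR1 by -0.94 ± 0.22 (edgeR adjusted p 0.00877) and EGR3 by -1.50 ± 0.38 (edgeR adjusted p 0.0135). FOS and EGR1 had smaller rises in LAC, where the EGR3 change did not pass. JUN changed by -0.74 in LAC and by 0.60 in the parental line, where it did not pass. All 10 differences were negative, with a median of -0.91 beside 0.06 for all genes. Over 8547 genes this difference between the lines followed GC content (Spearman's rho -0.634, a description). All 10 genes are GC-rich, from the 62.3 percentile (EGR2) to the 99.9 percentile (JUND), so the median of all genes is not a like comparison. The part of GC content in the shared sign was not tested. The JUN, EGR1 and EGR3 differences passed in all 25 alternatives, and were -1.01, -0.71 and -1.35 with the trend removed and -1.05, -0.92 and -1.42 without LAC replicate 1 at 0 h. The FOS difference was lost in 5 alternatives, among them library size only (-0.60, edgeR adjusted p 0.111) and the trend removed (-0.67, edgeR adjusted p 0.0626). These differences share the parental libraries with those of the other lines.

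At 16 h none of the 10 LAC differences passed edgeR (0.116% of all genes) or DESeq2, and 1, that of FOS, had an unadjusted p under 0.05. For LB2 none passed at 16 h (0.00465% of all genes) or at 96 h (0.368%) by either tool. The share of all genes at an unadjusted p under 0.05 is not given here, so counts at that cut are not read as a result. For LB2 there were 2 at 16 h and 4 at 96 h. At 96 h these were EGR2 at -1.82 ± 0.69, JUN at -1.04 ± 0.38, EGR1 at -0.61 ± 0.24 and FOS at -0.94 ± 0.26, whose edgeR adjusted p of 0.0796 was the lowest. These values do not show that LB2 and the parental line answered alike. For LB1 at 96 h the FOSB difference was 1.80 ± 0.43, while those of FOS, EGR1 and EGR3 were 0.37, -0.29 and -0.12, as descriptions.

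**Figure D5:**
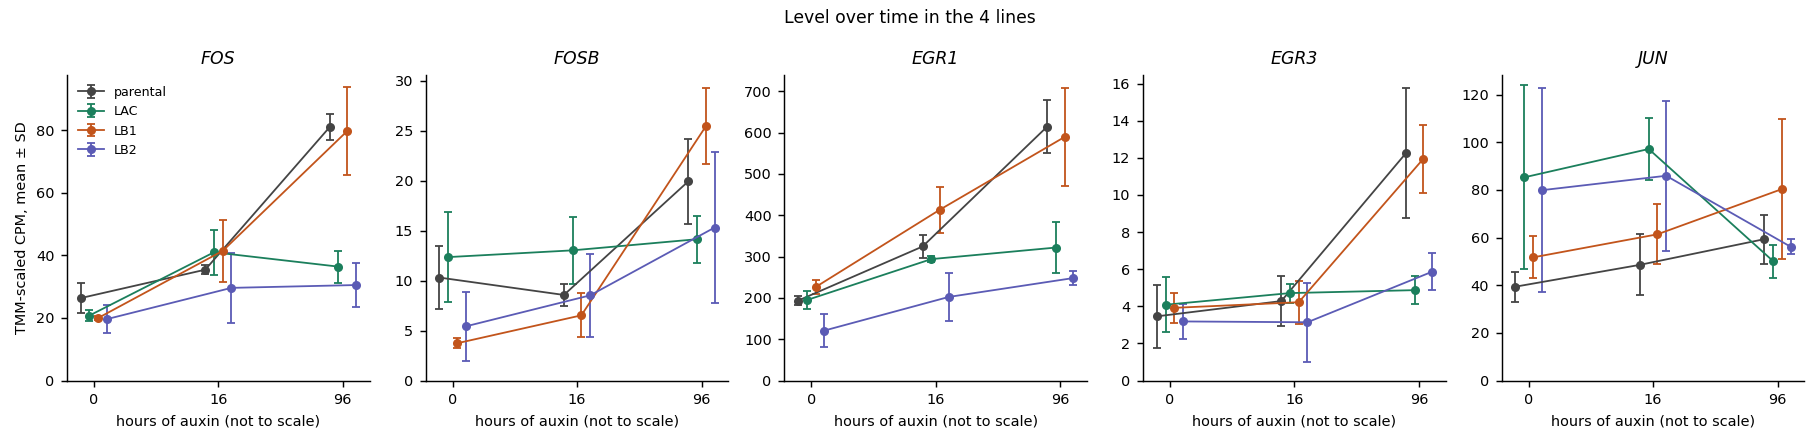
Mean TMM-scaled CPM ± SD (y axis, from 0) of 5 genes at 0, 16 and 96 h of auxin (x axis, not to scale) in the 4 lines, with n of 3 or 4. FOS, EGR1 and EGR3 end near the same level in the parental and LB1 lines and lower in LAC and LB2, while JUN in LAC and in LB2 ends below its 0 h mean.

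Genes around the AP-1 and EGR factors were counted from lists that were drawn up with earlier results of these data known. Their counts stand beside shares of all tested genes called of 9.01% and 7.78% in the parental line at 16 and 96 h, and of 15.4% in LAC and 3.55% in LB2 at 96 h. Of 27 tested other immediate early genes, 5 rose and 4 fell in the parental line at 16 h and 5 rose and 3 fell at 96 h. DUSP2, a nuclear ERK phosphatase, rose from 7.93 ± 1.04 to 23.8 ± 5.72 CPM at 96 h (SD, n = 4 each; log2 1.59, edgeR adjusted p 6.0e-07). NR4A3, an orphan nuclear receptor, rose by 1.20 (edgeR adjusted p 0.00212). CCN1, a matricellular immediate early gene, went against FOS and EGR1: it fell by -0.81 in the parental line (edgeR adjusted p 0.00103), -1.94 in LAC (edgeR adjusted p 5.3e-12) and -1.78 in LB2 (edgeR adjusted p 2.7e-09) at 96 h, and changed by -1.56 in LB1. In LAC at 96 h, 3 of the 27 rose and 7 fell, and in LB2, 2 rose and 4 fell. MYC rose in LB2 at both times, by 0.66 and 0.94 (edgeR adjusted p 0.00102 and 1.9e-06).

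Of 20 tested upstream factors and kinases, SRF, the serum response factor, was the single gene called in the parental line, a share below that of all genes, and was higher by 0.51 at 16 h (edgeR adjusted p 0.0439) and 0.52 at 96 h (edgeR adjusted p 0.0432). In LAC at 96 h, 3 rose and 6 fell, among them MRTFA, an SRF coactivator, by -0.69 (edgeR adjusted p 0.00167; -0.48 without replicate 1 at 0 h). Of 11 tested leucine zipper partners, JDP2 and MAFF fell in the parental line at 96 h, by -1.04 (edgeR adjusted p 0.00287) and -0.75 (edgeR adjusted p 0.0151), and ATF3 fell in LB2, by -0.98 (edgeR adjusted p 1.6e-05). Of 16 tested genes reported as AP-1 or EGR targets, none rose and 4 fell in the parental line at 96 h, with a median of -0.32. PLAUR, the urokinase receptor, was among them, lower by -0.55 (edgeR adjusted p 0.0226). Of 3 tested EGR relatives and corepressors, NAB1 rose by 0.54 (edgeR adjusted p 0.00148) and NAB2 fell by -0.74 (edgeR adjusted p 0.0316) in LAC at 96 h. Without replicate 1 at 0 h the NAB2 change was -0.24 (edgeR adjusted p 0.548).

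Likeness to these genes was described over the 12 group means of log2 CPM. Among 13996 other genes, with the 10 left out, the closest to EGR1 was RPH3AL (Pearson's r 0.975), then HOXA5 (0.944). Pearson's r takes no account of size. At 96 h RPH3AL moved by 0.39 in the parental line, 0.19 in LAC, 0.25 in LB1 and 0.22 in LB2 (log2). The EGR1 changes as fitted were 1.67, 0.73, 1.38 and 1.06. Outside the 10 genes, those closest to FOS were HOXA5 (0.897) and ACER2 (0.893), and to FOSB, TP53AIP1 (0.869) and FAM151B (0.868). FOS and EGR1 had an r of 0.933 with each other, and JUN and JUNB of -0.306. Within groups, JUN and JUNB were highest in the same library in 11 of 12 groups, against 3 of 12 for FOS and EGR1. The groups share lines and times, so these are descriptions.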

How the data were processed

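Total RNA depleted of ribosomal RNA was sequenced as stranded paired-end libraries, per the labels' protocols. The deposited table holds raw read counts per gene from featureCounts 1.6.4, per the file headers, and the submitters' processing notes name GRCh38, STAR 2.7.10a and nf-core/rnaseq 1.4.2. The strand setting and annotation release are not given in the sources used here. Groups came from the labels, and the 10 genes, the gene lists and the named genes were chosen with earlier results of these data known.

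All 46 libraries were fitted with edgeR 4.0.16 (R 4.3.3): TMM scaling, filterByExpr, 12 group coefficients, the quasi-likelihood test and Benjamini-Hochberg adjustment over 21484 genes, with a threshold of 0.05. The script was tested on simulated data. CPM are TMM-scaled, and RPKM divide them by the deposited exon length. Named list genes were those called with the largest changes, at most 2 in each direction, with a mean of at least 1 CPM. A total of 479446 counts resolves a gene far less well than one of 37309421, and a count of 0 allows up to 3. Alternatives were no low-count filter, scaling by RLE or by library size only, DESeq2 1.42.0, the compared groups alone, a replicate block, libraries under 5000000 counts left out, each library's GC and length trend removed, and each replicate left out. The block with the trend removed was added after seeing the data. Same-numbered wells were checked for pairing by the correlation of their deviations from the group means, and only LAC between 0 and 16 h had every r over 0.1 (0.124 to 0.691, 4 pairs). Comparisons within a line share its 0 h libraries.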

Additional observations from a re-analysis of the deposited data

Results flagged for a closer look

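Of 100 groups of 4 libraries examined for the 10 genes, 13 held a library whose gap to its nearest neighbour was large against the range of the group. For normal values chance gives about 1 in 20 in a single group. The 10 genes share the same libraries, so the 100 groups are not independent and 13 is not a test against that rate. Replicate 1 of LB2 at 0 h was the high library for JUN (144 CPM), JUNB (151), JUND (152) and EGR1 (181), and replicate 1 of LAC at 0 h for FOSB (19.1). Replicate 3 of LB2 at 16 h, the least deep library, was high for JUN (133) and at 0 for EGR3, where 3 counts is the floor. The other cases were FOS in parental replicate 3 at 16 h (33.2, low) and in LAC replicate 2 at 0 h (18.0, low), FOSL1 in parental replicate 3 at 16 h (32.7, high), EGR1 in parental replicate 3 at 0 h (209, high), EGR2 in LB2 replicate 4 at 0 h (3.06, high) and EGR3 in LAC replicate 4 at 96 h (3.74, low).

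The change with auxin at 96 h differed between LAC and the parental line, by the test of the difference itself, for FOS (-0.82), JUN (-1.34), EGR1 (-0.94) and EGR3 (-1.50).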

How the results depend on the processing

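Counts of the 10 genes called that moved by over 1.5 times were these. With the compared groups alone they were 3 in the parental line at 16 h, 0 in LAC at 16 h and 2 at 96 h. They were 0 in LB2 at both times and 0 for LB2 against parental at 0 h. With the GC and length trend removed they were 7 in the parental line and 3 in LAC at 96 h, and in LB2 at 16 h the count was 4. Over all 21484 genes that fit called 3066 in the parental line (1671 as fitted) and 2733 in LAC (3304) at 96 h. In LB2 at 16 h it called 980 (388). With library size only and without libraries under 5000000 counts the parental count of the 10 genes at 16 h was 2, and with RLE scaling that of LAC at 16 h was 1. Over all genes library size only called 1705 in the parental line at 16 h (1935 as fitted), and RLE scaling 436 in LAC (383). Without a low-count filter the LB2 response at 96 h gave 2 of the 10 genes. Counts over all genes under the other alternatives are not given here. The cause was not tested, except that fits of fewer groups or libraries hold fewer samples. Leaving out 1 library gave 1 to 4 in LAC at 16 h (4 without replicate 2 at 0 h), and 3 to 5 there at 96 h. For LB2 the ranges were 1 to 3 at 16 h and 2 to 4 at 96 h. Smaller moves were of 1 or 2 genes, such as 6 in the parental line at 96 h without libraries under 5000000 counts, 6 in the LAC response at 96 h without a low-count filter, and 3 in LB2 at 96 h with RLE scaling.

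Over all comparisons within a line, 13 of 29 same-numbered pairs of wells deviated together with r over 0.1 (from -0.573 to 0.691), and 7 correlated best with their own number. Every pair had an r over 0.1 in LAC between 0 and 16 h alone, where a replicate block changed no call of the 10 genes. Elsewhere the block gave 2 in the parental line at 16 h, 1 in the LB2 response at 96 h and 3 in LB2 at 96 h, where EGR3 was lost (1.02, edgeR adjusted p 0.0516). The block with the trend removed, chosen after seeing the data, gave 2 in the parental line at 16 h, 7 there and 3 in LAC at 96 h, and for LB2 a count of 4 at 16 h and of 1 in the response at 96 h.

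Of 3262 values of 175 tested single-gene results under alternatives, 3011 kept their side of the threshold, 197 lost it and 54 gained it. No called result changed direction, while 136 values of 37 uncalled results changed sign. Of 1040 values of 55 described LB1 results, 1031 moved by less than 1 SD. Counting tested and described results together, 198 values of 49 results changed sign. None of these had a log2 change over 0.51 in size as fitted. Scaling shifted the median log2 change of all genes, with library size only from 0.06 to 0.27 for the LAC response at 96 h, and the share of higher calls there from 41.9% to 79.9%. Depth limits FOSB, EGR2 and EGR3, with as few as 2, 1 and 0 counts in a library.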
